A study of Mus musculus with 11 samples.

Results

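The 10 genes described here, Atf4, Ddit3, Trib3, Asns, Chac1, Hspa5, Hsp90b1, Xbp1, Dnajb9 and Herpud1, are known reporters of the ATF4 pathway and of the unfolded protein response. They were taken by symbol from a table of 21684 genes, where they filled 11 rows. A second row named Ddit3 (ENSMUSG00000116429) stood at 0 in every library, and the other 10 rows passed the filter on low counts, as did 13332 genes in all. RNA was sequenced from NIH/3T3, a permanent fibroblast line from mouse embryos, in 4 genotypes: wild type (WT, 2 libraries) and single knockouts, labelled Xap5 KO, Nono KO or Sox5 KO (3 libraries each). Cells of every genotype, WT included, were grown in DMEM with 10% calf serum and then kept for 24 h in medium without serum, a treatment used to induce primary cilia. The series was built to profile these knockouts during ciliogenesis. No group without starvation was analysed here, so each level is that of starved cells. The labels name no clones or separate cultures, so p-values measure only the spread between these libraries.

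A pair of signalling branches meets in these genes. Kinases such as PERK and GCN2 phosphorylate the translation factor eIF2 under endoplasmic reticulum (ER) stress or amino acid shortage, general translation falls, and the ATF4 protein is translated more efficiently and activates genes for amino acid supply, redox balance and cell death. In the ER branch, unfolded protein activates the sensors IRE1 and ATF6: IRE1 splices the Xbp1 mRNA, and the factors made from spliced Xbp1 and cleaved ATF6 induce chaperones and degradation genes. Gene counts show neither translation nor splicing, so the values below are total RNA of each gene.

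Promoter sequence was searched for the elements through which these factors are known to act, because the members fall into an ATF4 group and an ER group. The RefSeq promoter table (GRCm38.p6) held all 10 members, and the 250 bases before each gene's start were read on both strands. The ER stress element (ERSE, CCAAT and CCACG with 9 free bases between them), a site for ATF6 with NF-Y, was found before Hspa5 and Hsp90b1. ERSE-II (ATTGG and CCACG with 1 free base between them) was found before Herpud1. The C/EBP-ATF response element (CARE, TGATGNAA), bound by ATF4 with a C/EBP partner, was found before Asns, Chac1 and Herpud1. The XBP1 element UPRE (TGACGTGG) was in none of the 10 windows. These letters were present before 0.13% of 27025 genes for ERSE, 0.037% for ERSE-II, 3.91% for CARE and 0.603% for UPRE. A match describes the sequence and does not show that a factor is bound there.

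The matched stretches are shown from 25 bases before the first element to 25 bases after the last, or to the last base before the start, 5′ to 3′ along the gene's strand. Capitals mark the fixed letters of each element. Lines run from the ATF4 targets to the ER genes, with GRCm38.p6 coordinates and strand: Asns chr6:7693210-7693257 (minus), Chac1 chr2:119351024-119351081 (plus), Herpud1 chr8:94386292-94386412 (plus), Hspa5 chr2:34772000-34772068 (plus) and Hsp90b1 chr10:86705508-86705681 (minus).
Asns: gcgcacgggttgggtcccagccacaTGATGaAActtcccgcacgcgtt
Chac1: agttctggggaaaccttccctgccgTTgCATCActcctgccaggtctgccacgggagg
Herpud1: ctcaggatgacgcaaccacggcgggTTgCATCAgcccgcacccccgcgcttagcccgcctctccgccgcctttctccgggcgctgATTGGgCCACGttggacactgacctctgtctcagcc
Hspa5: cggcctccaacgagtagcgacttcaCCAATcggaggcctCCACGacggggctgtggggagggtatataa
Hsp90b1: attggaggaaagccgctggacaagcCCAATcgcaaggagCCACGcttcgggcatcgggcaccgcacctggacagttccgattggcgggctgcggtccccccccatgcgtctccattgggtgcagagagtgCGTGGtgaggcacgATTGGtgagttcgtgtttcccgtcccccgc

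Counting back from the start, with -1 as the last base before it, the CARE of Asns lies at -23 to -16. The CARE of Chac1, read on the opposite strand, lies at -193 to -186. Herpud1 has its CARE on the opposite strand at -112 to -105 and its ERSE-II at -52 to -42, so it is the member with elements of both branches. The ERSE of Hspa5 lies at -65 to -47. Hsp90b1 holds 1 ERSE on its own strand at -212 to -194 and 1 on the opposite strand at -107 to -89. No element was found in this window for Atf4, Ddit3, Trib3, Xbp1 or Dnajb9.

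The libraries held between 30205878 and 43498383 counts, with Sox5 KO the shallowest at 30205878 to 32788225, and every member had between 117 and 61857 counts in every library. Fam50a, the mouse symbol of Xap5, averaged 7.75 CPM (counts scaled to a common library total) in Xap5 KO against 63.8 in WT, and Nono 31.8 CPM in Nono KO against 354 in WT. Sox5 averaged 13.5 CPM in Sox5 KO, 47.8 in WT, 13.7 in Xap5 KO and 7.78 in Nono KO, so its RNA level does not single out the libraries labelled Sox5 KO. All 10 fibroblast markers were detected, and their summed level was 10639 to 10901 CPM in WT, 10320 to 10870 in Xap5 KO, 28328 to 33817 in Nono KO and 14591 to 15165 in Sox5 KO. Single markers went other ways: Lum was at 49.5 to 53.0 CPM in WT, 11.0 to 12.2 in Xap5 KO and 3.29 to 4.91 in Sox5 KO, Pdgfra at 865 to 903 in WT and 421 to 443 in Sox5 KO, and Col3a1 at 355 to 404 in WT and 178 to 209 in Xap5 KO. Summed epithelial markers (6 genes) did not exceed 0.497 CPM in any library. Summed endothelial markers (5 genes, Emcn at 0 throughout) ran from 0.206 CPM in a Xap5 KO library to 2.79 CPM in a Nono KO library. Summed macrophage and leukocyte markers (5 genes) were 2.66 to 2.88 CPM in WT, 4.02 to 5.43 in Xap5 KO, 9.28 to 13.9 in Nono KO and 4.18 to 5.19 in Sox5 KO. The mitochondrially encoded share of counts was 6.24% ± 0.0537 (SD, n = 2) in WT, and, over 3 libraries each, 8.94% ± 1.24 (SD; Xap5 KO), 7.51% ± 0.444 (Nono KO) and 6.61% ± 0.478 (Sox5 KO). Their part in the results below was not tested, and in these bulk libraries fewer cells expressing a gene and less RNA per cell cannot be told apart.

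Per kilobase of the longest annotated transcript, the ER chaperones Hsp90b1 and Hspa5 were the most abundant members in WT, and the ATF4 targets Trib3 and Chac1 the least. On the scale of mean CPM per kb in WT, the order was Hsp90b1 at 266, Hspa5 at 176, Atf4 at 81.1, Xbp1 at 47.6 and Ddit3 at 42.2. It went on with Asns at 23.7, Herpud1 at 22.6, Dnajb9 at 14.6, Trib3 at 2.71 and Chac1 at 1.98. Over all 11 libraries Hsp90b1 at 361 and Hspa5 at 313 CPM per kb again led, and Dnajb9 at 11.9, Trib3 at 11.3 and Chac1 at 10.4 lay close together at the foot. These levels describe the libraries and depend on the transcript length chosen.

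Against WT, most members were higher in each knockout, and Trib3 and Chac1 changed most. In Xap5 KO 7 of the 10 members were called higher (edgeR quasi-likelihood test, adjusted p under 0.05 over all tested genes), where 23.2% of all tested genes were, and 1 was lower, where 22.3% of all were. In Nono KO 9 were higher and none lower, where 23.5% of all genes were higher and 25.1% lower. In Sox5 KO 9 were higher and 1 lower, where 30.6% of all genes were higher and 30.3% lower. The median log2 fold change of the members was 0.49 in Xap5 KO (0.003 over all tested genes), 0.94 in Nono KO (-0.02 over all) and 1.22 in Sox5 KO (-0.006 over all). The 3 comparisons share the WT libraries, so their values are given side by side. Scaled by library totals alone, 2157 genes were higher and 4989 lower in Nono KO, against 3134 and 3342 here, and the median of all genes moved to -0.18.

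Members called and at least 2-fold higher numbered 2 in Xap5 KO (Trib3 and Chac1), where 5.67% of all genes passed both. In Nono KO there were 4 (Atf4, Trib3, Asns and Chac1), where 6.5% of all genes passed. In Sox5 KO there were 6 (the same 4 with Hspa5 and Herpud1), where 8.3% of all genes passed.

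**Figure D1:**
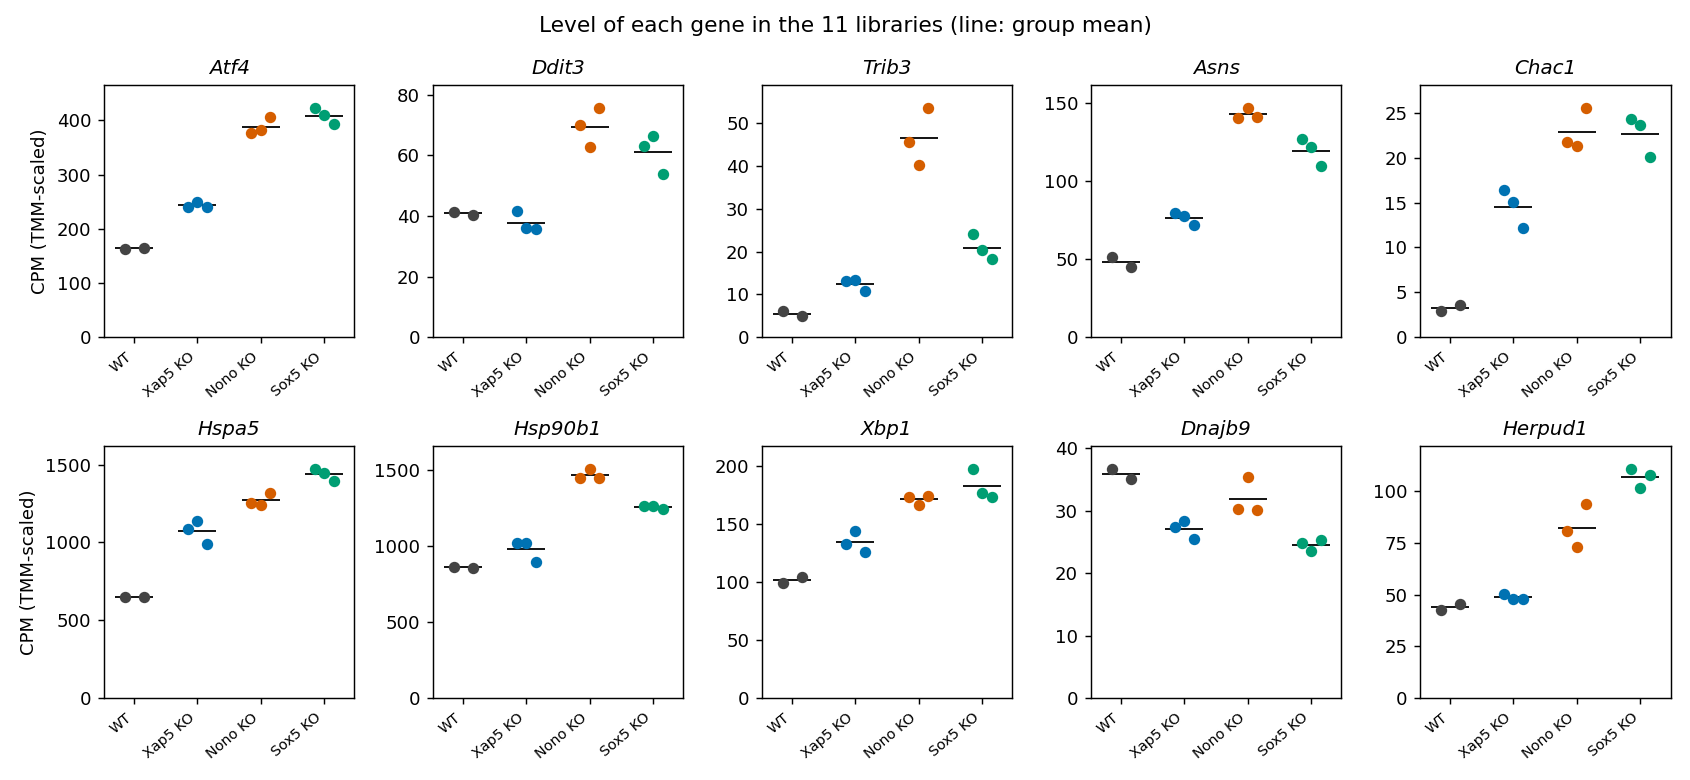
Level of each of the 10 genes in every library, in CPM on TMM-scaled library sizes; each panel is a gene with a linear axis from 0, points are libraries by genotype and bars are group means. Atf4, Trib3, Asns, Chac1, Hspa5, Hsp90b1, Xbp1 and Herpud1 lie above both WT libraries in every knockout library, and Dnajb9 lies below them in Xap5 KO and Sox5 KO.

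Atf4 (ENSMUSG00000042406, chromosome 15), which encodes the transcription factor of the pathway, was higher in all 9 knockout libraries. It stood at 163 and 164 CPM in WT and at 240.2, 250 and 241 in Xap5 KO. Nono KO libraries gave 377, 383 and 406 CPM, and those of Sox5 KO 423, 410 and 393. The groups did not overlap with WT, and Nono KO and Sox5 KO overlapped with each other. The rise was 1.49-fold in Xap5 KO (log2 0.57, SE 0.058, adjusted p = 5.87e-08), 2.37-fold in Nono KO (log2 1.25, SE 0.059, adjusted p = 2.56e-13) and 2.5-fold in Sox5 KO (log2 1.32, SE 0.059, adjusted p = 7.7e-14).

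Trib3 (ENSMUSG00000032715, chromosome 2), a pseudokinase induced by ATF4 and CHOP that can damp ATF4 activity, had the largest rise of any member, in Nono KO. WT libraries held 6.00 and 4.97 CPM, and Xap5 KO libraries 13.1, 13.3 and 10.8. Nono KO libraries held 45.6, 40.4 and 53.6 CPM, and Sox5 KO libraries 24.1, 20.3 and 18.3. The 4 groups did not overlap at all. Trib3 was 2.27-fold higher in Xap5 KO (log2 1.18, SE 0.15, adjusted p = 1.97e-06), 8.48-fold in Nono KO (log2 3.08, SE 0.16, adjusted p = 1e-12) and 3.82-fold in Sox5 KO (log2 1.93, SE 0.15, adjusted p = 7.23e-10).

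Chac1 (ENSMUSG00000027313, chromosome 2), an enzyme that degrades glutathione, had the largest rise of any member in Xap5 KO and in Sox5 KO. It was at 2.90 and 3.59 CPM in WT, and Xap5 KO libraries had 16.4, 15.02 and 12.2 CPM. Nono KO libraries had 21.8, 21.3 and 25.6 CPM, and Sox5 KO libraries 24.3, 23.7 and 20.0. Every knockout library lay above both WT libraries, and those of Xap5 KO lay below those of the other knockouts. Its fold change was 4.47 in Xap5 KO (log2 2.16, SE 0.16, adjusted p = 7.88e-10), 7.03 in Nono KO (log2 2.81, SE 0.17, adjusted p = 9.49e-12) and 6.97 in Sox5 KO (log2 2.80, SE 0.17, adjusted p = 6.06e-12).

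Asns (ENSMUSG00000029752, chromosome 6), asparagine synthetase, rose in all 3 knockouts, in the order Xap5 KO, Sox5 KO, Nono KO. WT gave 51.0 and 44.8 CPM, Xap5 KO 79.3, 77.3 and 71.5, Nono KO 140.4, 147 and 141, and Sox5 KO 127, 122 and 110 CPM. No pair of groups overlapped. The rise was 1.59-fold in Xap5 KO (log2 0.67, SE 0.076, adjusted p = 3.19e-07), 2.98-fold in Nono KO (log2 1.58, SE 0.078, adjusted p = 4.61e-13) and 2.49-fold in Sox5 KO (log2 1.32, SE 0.077, adjusted p = 4.44e-12).

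Ddit3 (ENSMUSG00000025408, chromosome 10) encodes CHOP, a factor linked to cell death in prolonged stress. It stood at 41.4 and 40.3 CPM in WT, and the knockout libraries gave 41.7, 35.9 and 35.6 (Xap5 KO), 70.0, 62.6 and 75.6 (Nono KO) and 63.2, 66.5 and 54.0 (Sox5 KO). Xap5 KO overlapped WT, and the other knockouts lay above it. The difference was not called in Xap5 KO (log2 -0.11, 95% interval -0.32 to 0.09, adjusted p = 0.375), though an offset for each library's trend with transcript length and GC gave -0.33 there (adjusted p = 0.0147) and the chromosome offset described below 0.36 (adjusted p = 0.00995). Ddit3 rose 1.7-fold in Nono KO (adjusted p = 2.04e-06) and 1.5-fold in Sox5 KO (adjusted p = 3.69e-05). In Sox5 KO the call was lost with the length and GC offset (log2 -0.04, adjusted p = 0.75). Its exons overlap those of Mars1, methionyl-tRNA synthetase, and of the predicted gene Gm4189, both on the opposite strand. Mars1 gave log2 changes of 0.16 (adjusted p = 0.0674), 0.74 (adjusted p = 1.28e-08) and 0.55 (adjusted p = 4.93e-07), in the same order of knockouts. The handling of strand is not given in the sources used here, so reads from the bases that Ddit3 and Mars1 share cannot be told apart. The length of that overlap was not measured.

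Among the ER genes, Hspa5 (ENSMUSG00000026864, chromosome 2), the chaperone BiP that also holds the stress sensors inactive, rose in all 3 knockouts. It stood at 647 and 646 CPM in WT, and the knockout libraries gave 1083, 1139 and 990 CPM (Xap5 KO), 1252, 1239 and 1320.1 (Nono KO) and 1475, 1446 and 1398 (Sox5 KO). The 4 groups did not overlap. Hspa5 rose 1.66-fold in Xap5 KO (log2 0.73, SE 0.064, adjusted p = 7.58e-09), 1.96-fold in Nono KO (log2 0.97, SE 0.065, adjusted p = 5.78e-11) and 2.23-fold in Sox5 KO (log2 1.16, SE 0.065, adjusted p = 2.41e-12).

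Hsp90b1 (ENSMUSG00000020048, chromosome 10), the ER chaperone GRP94, was highest in Nono KO. Its libraries gave 862 and 855 CPM in WT, 1014, 1020.5 and 890.2 in Xap5 KO, 1444, 1507 and 1443 in Nono KO and 1258, 1262 and 1240.4 CPM in Sox5 KO. All knockout libraries lay above WT, by the smallest margin in Xap5 KO. The rise was 1.71-fold in Nono KO (adjusted p = 1.9e-09) and 1.46-fold in Sox5 KO (adjusted p = 1.74e-07). In Xap5 KO it was 1.14-fold (log2 0.18, SE 0.062, adjusted p = 0.0203). That call was lost without WT replicate 1 (adjusted p = 0.122), WT replicate 2 (0.137), Xap5 KO replicate 1 (0.0923) or Xap5 KO replicate 2 (0.116), with library totals (0.071) and with the length and GC offset (0.215). Exons of Hsp90b1 overlap 1810014B01Rik on the opposite strand and the predicted genes Gm15344 and Gm25745 on the same strand, so its count is uncertain to that extent.

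Xbp1 (ENSMUSG00000020484, chromosome 11), the transcript that IRE1 splices, rose in all 3 knockouts. It stood at 99.0 and 104 CPM in WT, and the knockout libraries gave 133, 144 and 126 CPM (Xap5 KO), 173, 167 and 174 (Nono KO) and 197, 176 and 173 (Sox5 KO). Nono KO and Sox5 KO overlapped, and Xap5 KO lay between them and WT. The rise was 1.32-fold in Xap5 KO (log2 0.40, SE 0.070, adjusted p = 6.72e-05), 1.69-fold in Nono KO (log2 0.76, SE 0.070, adjusted p = 1.25e-08) and 1.8-fold in Sox5 KO (log2 0.84, SE 0.071, adjusted p = 1.32e-09).

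Herpud1 (ENSMUSG00000031770, chromosome 8), a membrane protein of ER-associated degradation, was highest in Sox5 KO. WT libraries held 42.6 and 45.4 CPM, Xap5 KO 50.4, 47.8 and 48.0, Nono KO 80.5, 72.9 and 93.6, and Sox5 KO 111, 101 and 108 CPM. None of the 4 groups overlapped. Herpud1 was 1.87-fold higher in Nono KO (log2 0.90, SE 0.088, adjusted p = 2.76e-08) and 2.42-fold in Sox5 KO (log2 1.28, SE 0.089, adjusted p = 8.13e-11). In Xap5 KO the log2 difference was 0.15 (95% interval -0.03 to 0.33, adjusted p = 0.182) and was not called.

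Dnajb9 (ENSMUSG00000014905, chromosome 12) encodes ERdj4, a co-chaperone of BiP that represses IRE1, and it was the one member called lower. It stood at 36.8 and 35.1 CPM in WT, and the knockout libraries gave 27.5, 28.4 and 25.5 CPM (Xap5 KO), 30.2, 35.4 and 30.2 (Nono KO) and 24.8, 23.6 and 25.4 (Sox5 KO). Xap5 KO and Sox5 KO lay below WT, and 1 Nono KO library lay within the WT range. The log2 change was -0.41 in Xap5 KO (SE 0.095, adjusted p = 0.00147) and -0.55 in Sox5 KO (SE 0.096, adjusted p = 4.1e-05). In Nono KO it was -0.17 (95% interval -0.37 to 0.03, adjusted p = 0.153), and it was called without Nono KO replicate 2 (-0.25, adjusted p = 0.0441), with library totals (-0.33, adjusted p = 0.00537) and with the length and GC offset (-0.33, adjusted p = 0.00713). With the median of chromosome 12 removed, the Sox5 KO value turned to 0.22 and was not called (adjusted p = 0.0552). Its exons overlap the microRNA gene Mir5627 on the opposite strand.

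**Figure D2:**
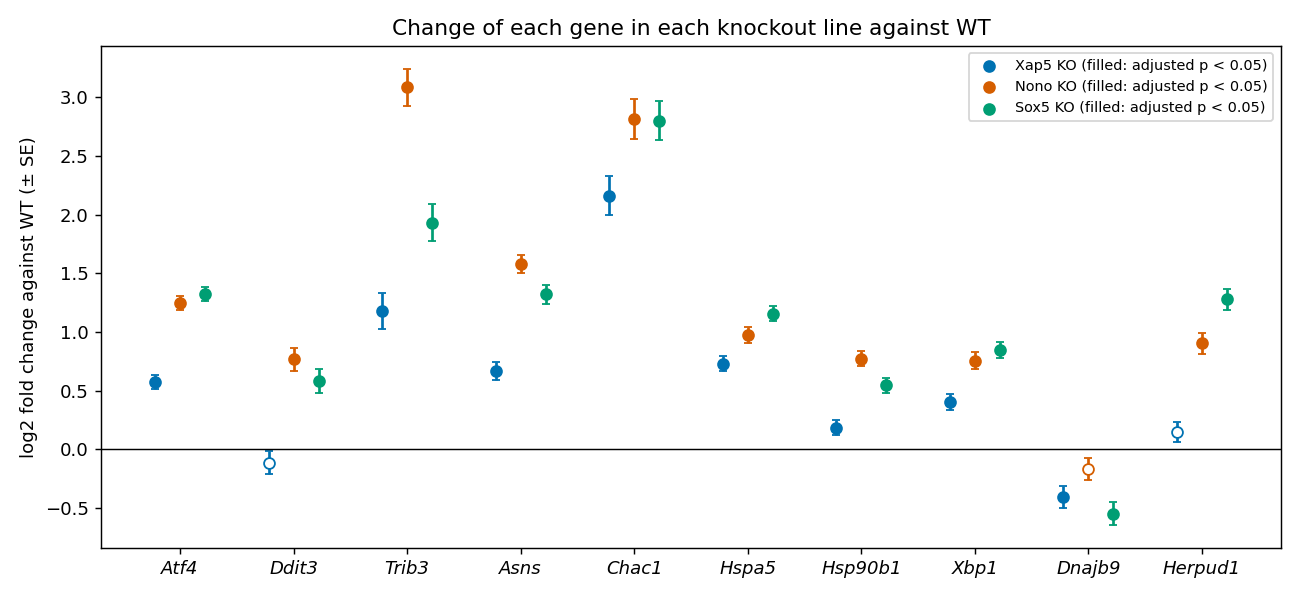
Log2 fold change of each of the 10 genes against WT, by knockout, from the edgeR fit, with SE bars; filled points passed the adjusted p threshold. The values run from -0.55 for Dnajb9 in Sox5 KO to 3.08 for Trib3 in Nono KO.

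The knockouts also differed from each other, with Xap5 KO at the low end. All 10 members were lower in Xap5 KO than in Nono KO, where 53.0% of all tested genes differed in either direction (3613 higher and 3458 lower in Xap5 KO, or 4721 and 2624 when scaled by library totals). The log2 difference was largest for Trib3 (-1.91, adjusted p = 6.66e-11) and Asns (-0.91, adjusted p = 2.57e-10), Atf4 differed by -0.68 (adjusted p = 4.66e-10), and the smallest were Hspa5 (-0.25, adjusted p = 0.00085) and Dnajb9 (-0.24, adjusted p = 0.0256). The Dnajb9 call was lost without Xap5 KO replicate 3 (-0.21, adjusted p = 0.0727), without Nono KO replicate 2 (-0.16, adjusted p = 0.16), with library totals (-0.13, adjusted p = 0.227) and with the chromosome offset (-0.09, adjusted p = 0.428).

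Against Sox5 KO, 9 members were lower in Xap5 KO and none was higher. Of all tested genes 61.6% differed in either direction, 4151 higher and 4058 lower in Xap5 KO. Herpud1 (-1.13, adjusted p = 6.52e-11), Trib3 (-0.75, adjusted p = 2.54e-05) and Atf4 (-0.75, adjusted p = 5.99e-11) differed most, and Hsp90b1 least (-0.36, adjusted p = 8.36e-06). Dnajb9 was not called (0.14, 95% interval -0.04 to 0.33, adjusted p = 0.163), but was called higher in Xap5 KO with library totals (0.20, adjusted p = 0.0468) and lower with the chromosome offset (-0.47, adjusted p = 8.67e-05). The lead of Herpud1 also depended on that offset. With it, Herpud1 stood at log2 0.51 (Xap5 KO) and 1.03 (Sox5 KO) against WT. Trib3 then stood at 1.03 and 1.79, and Asns at 0.94 and 1.67, both wider gaps than that of Herpud1.

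Between Nono KO and Sox5 KO, 4 members were higher in Nono KO and 2 in Sox5 KO. Of all tested genes 63.5% differed, 4113 higher and 4348 lower in Nono KO. The number of members that differed was thus near the share of all genes. Trib3 was 1.15 higher in Nono KO on the log2 scale (adjusted p = 4.94e-08), followed by Dnajb9 (0.38, adjusted p = 0.000685), Asns (0.26, adjusted p = 0.00171) and Hsp90b1 (0.23, adjusted p = 0.00135). Herpud1 (-0.38, adjusted p = 0.000208) and Hspa5 (-0.18, adjusted p = 0.00778) were higher in Sox5 KO. Herpud1 lost that call with the length and GC offset (-0.15, adjusted p = 0.0993). With the chromosome offset described below, Asns, Hsp90b1, Herpud1 and Hspa5 lost their calls and Trib3 kept its call. Dnajb9 was then called in the opposite direction, lower in Nono KO (-0.39, adjusted p = 0.000659). Atf4 itself did not pass the test (-0.07, 95% interval -0.18 to 0.03), and alternatives called it in opposite directions, at -0.12 with library totals (adjusted p = 0.042) and 0.12 with the length and GC offset (adjusted p = 0.0297). The test was not passed by Chac1 (0.01, interval -0.25 to 0.28) or Xbp1 (-0.09, interval -0.22 to 0.04). Ddit3 missed it as well (0.18, adjusted p = 0.0785), but passed with the length and GC offset (0.51, adjusted p = 0.000118) and without Xap5 KO replicate 1 (0.20, adjusted p = 0.0428), Nono KO replicate 2 (0.25, adjusted p = 0.0267) or Sox5 KO replicate 2 (0.25, adjusted p = 0.0377).

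The median change of the tested genes was shifted on several chromosomes that carry members. Whether such a shift spanned the whole chromosome was not tested. The median log2 change of the 643 tested genes of chromosome 10, which carries Ddit3 and Hsp90b1, was -0.46, -0.14 and -0.32 (Xap5 KO, Nono KO, Sox5 KO). Chromosome 12, which carries Dnajb9, had a median of -0.75 in Sox5 KO and -0.16 in Xap5 KO over 447 genes. Chromosome 8, which carries Herpud1, had medians of -0.35, -0.13 and 0.24 in that order over 715 genes. Chromosome 6, which carries Asns, stood at -0.25, -0.19 and -0.35 over 629 genes. The chromosomes of the remaining members had medians between 0.01 and 0.17: chromosome 2 (Trib3, Chac1 and Hspa5; 0.13, 0.01 and 0.14), chromosome 11 (Xbp1; 0.01, 0.03 and 0.15) and chromosome 15 (Atf4; 0.04, 0.16 and 0.17).

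**Figure D3:**
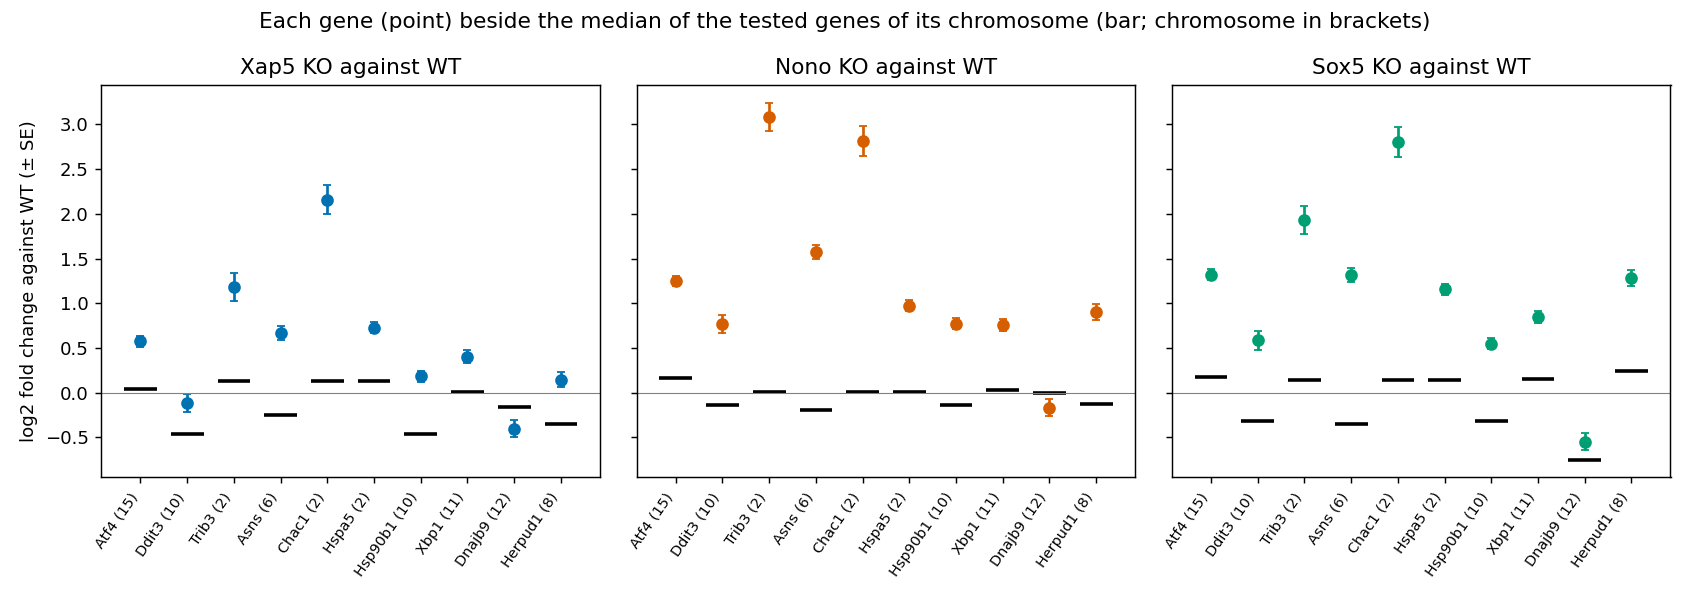
Log2 fold change against WT of each of the 10 genes (points with SE bars, 1 panel per knockout) beside the median of the tested genes of its chromosome (black bars). Dnajb9 in Sox5 KO (-0.55) lies above the median of chromosome 12 (-0.75), and Ddit3 in Xap5 KO (-0.11) above that of chromosome 10 (-0.46).

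The fit was repeated with each chromosome's median removed in each library, an alternative chosen after these values were seen. In Xap5 KO this gave calls to Ddit3 (log2 0.36, adjusted p = 0.00995) and Herpud1 (0.51, adjusted p = 7.09e-05), and moved Hsp90b1 from 0.18 to 0.66 (adjusted p = 4.82e-08) and Hspa5 from 0.73 to 0.57 (adjusted p = 2.38e-07). Dnajb9 in Sox5 KO turned from -0.55 to 0.22 and was no longer called (adjusted p = 0.0552), and in Xap5 KO it stayed lower at -0.25 (adjusted p = 0.0428). With that offset 9 members were higher and 1 lower in Xap5 KO, 9 and 0 in Nono KO, and 9 and 0 in Sox5 KO. Between Nono KO and Sox5 KO it removed the calls of Herpud1 (-0.02), Asns (0.12), Hspa5 (-0.07) and Hsp90b1 (0.06), and left Trib3 higher in Nono KO. It turned Dnajb9 to -0.39, a call in the opposite direction (adjusted p = 0.000659).

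Other genes of the pathway were read from lists that hold none of the 10 members. Their counts stand beside the shares of all tested genes called higher and lower: 23.2% and 22.3% in Xap5 KO, 23.5% and 25.1% in Nono KO, and 30.6% and 30.3% in Sox5 KO. Among genes named below as lower, Eif2ak3, Creb3l2, Bcat1 and Sec61a1 lie on chromosome 6 (medians -0.25, -0.19 and -0.35 in that order). Mbtps1, Gdf15, Kars and Dnajb1 lie on chromosome 8 (medians -0.35, -0.13 and 0.24). Medians were taken only for chromosomes that carry a member. Whether falls or rises of the list genes go beyond the medians of their chromosomes was not tested. Upstream, the 7 eIF2 kinase and phosphatase genes moved both ways, with medians of -0.05 (Xap5 KO), 0.02 (Nono KO) and -0.16 (Sox5 KO). Called higher and lower were 3 and 1 in Xap5 KO, 3 and 1 in Nono KO, and 2 and 3 in Sox5 KO. Eif2ak3, which encodes PERK, fell in Xap5 KO (log2 -0.44, adjusted p = 6e-05) and Sox5 KO (-0.56, adjusted p = 1.68e-06). Eif2ak4, which encodes the amino acid sensor GCN2, rose by 0.28 in Xap5 KO (adjusted p = 0.00697) and fell in Nono KO (-0.56, adjusted p = 5.26e-06). Ppp1r15a, the GADD34 subunit that dephosphorylates eIF2, rose in Sox5 KO (0.92, adjusted p = 1.19e-07), and its constitutive relative Ppp1r15b in Nono KO (0.36, adjusted p = 2.34e-05).

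The 9 UPR sensor and processing genes also split, with 3 higher and 4 lower in Xap5 KO, 2 and 4 in Nono KO, and 5 and 3 in Sox5 KO, and medians of 0.14, -0.01 and 0.2. Ern1, which encodes IRE1, averaged 72 ± 2.98 CPM in WT (SD, n = 2) and was lower in each knockout at 46.4 ± 2.78, 46.1 ± 1.51 and 36.1 ± 3.37 CPM (SD, n = 3 each). Its log2 change was -0.63 in Xap5 KO (adjusted p = 3.59e-06), -0.64 in Nono KO (adjusted p = 2.47e-06) and -0.99 in Sox5 KO (adjusted p = 2.61e-09). Creb3l1, an ER membrane factor related to ATF6, rose by 2.25 in Nono KO (adjusted p = 1.38e-08) and 1.68 in Sox5 KO (adjusted p = 1.81e-07), while its relative Creb3l2 fell in Sox5 KO (-1.06, adjusted p = 8.93e-12). In Xap5 KO Atf6b rose by 0.33 (adjusted p = 8.64e-05) and Mbtps1, the site-1 protease that cleaves ATF6, fell (-0.78, adjusted p = 2.16e-10).

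Of 13 ATF4-linked regulators and stress outputs, 11 were tested, with 7 higher and 3 lower in Xap5 KO, 7 and 1 in Nono KO, and 6 and 1 in Sox5 KO. Their medians were 0.58, 0.9 and 0.24. Atf5, a factor translated under the same control as ATF4, led in Xap5 KO (log2 1.19, adjusted p = 2.59e-10), and Stc2, a secreted stanniocalcin, led in Nono KO (2.41, adjusted p = 1.21e-10) and Sox5 KO (2.55, adjusted p = 3.03e-11). Atf3, a stress-induced repressor, fell in Xap5 KO (-1.29, adjusted p = 7.78e-06), and the lipoprotein receptor gene Vldlr fell in Sox5 KO (-0.66, adjusted p = 1.86e-05). The gene that was lower in Nono KO was Gdf15, a stress-induced cytokine, named after its values were seen: it averaged 0.979 CPM in WT and 0.123 CPM in Nono KO (-2.94, adjusted p = 0.0325), a level of few counts. Gdf15 was also called lower in Xap5 KO, at 0.120 CPM (-3.00, adjusted p = 0.0324).

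Amino acid supply genes were mostly higher in Nono KO and Sox5 KO, and less uniformly so in Xap5 KO. All 12 genes for serine, one-carbon, proline and transamination steps were higher in Nono KO (median 1.49) and in Sox5 KO (median 1.42), and 6 were higher and 2 lower in Xap5 KO (median 0.59). Psat1, an enzyme of serine synthesis, averaged 64.4 ± 5.50 CPM in WT (SD, n = 2) and 403 ± 20.6 CPM in Sox5 KO (SD, n = 3; log2 2.65, adjusted p = 6.94e-17). Pycr1 of proline synthesis led in Nono KO (2.77, adjusted p = 2.52e-11) and Mthfd2 of mitochondrial folate metabolism in Xap5 KO (1.37, adjusted p = 7.97e-10), where Bcat1, a branched-chain transaminase, fell (-1.1, adjusted p = 3.64e-09).

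Of the 9 amino acid transporters, 3 were higher and none lower in Xap5 KO, 8 and none in Nono KO, and 6 and 2 in Sox5 KO, with medians of 0.12, 0.87 and 0.75. Slc7a5, the large neutral amino acid carrier LAT1, averaged 17.0 ± 0.602 CPM in WT (SD, n = 2). Its knockout means were 34.2 ± 0.258 CPM (Xap5 KO), 122 ± 9.76 (Nono KO) and 93.7 ± 4.74 (Sox5 KO; SD, n = 3 each). Slc7a1, a carrier of cationic amino acids, led in Xap5 KO (log2 1.14, adjusted p = 4.88e-10), and its relative Slc7a3 fell in Sox5 KO (-1.35, adjusted p = 0.0012). Of the 20 cytosolic aminoacyl-tRNA synthetases, 10 were higher and 1 lower in Xap5 KO, 15 and none in Nono KO, and 19 and 1 in Sox5 KO, with medians of 0.21, 0.64 and 0.65. The cysteinyl enzyme gene Cars rose by 0.76 in Xap5 KO (adjusted p = 1.53e-08) and 1.63 in Sox5 KO (adjusted p = 6.29e-14), and Eprs by 1.1 in Nono KO (adjusted p = 2.47e-11). Wars1 was the synthetase that fell in Sox5 KO (-0.66, adjusted p = 4.05e-08), on chromosome 12 with its median of -0.75. Kars was the one in Xap5 KO (-0.23, adjusted p = 0.0135), on chromosome 8 with its median of -0.35.

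ER chaperones and folding enzymes were mostly higher in all 3 knockouts. Of 21 genes, 15 were higher and 2 lower in Xap5 KO, 17 and 1 in Nono KO, and 15 and 2 in Sox5 KO, with medians of 0.31, 0.64 and 0.4. Sdf2l1, an ER chaperone cofactor, led in Xap5 KO (log2 1.34, adjusted p = 1.93e-08) and Sox5 KO (1.74, adjusted p = 1.64e-10), and the oxidase gene Ero1a in Nono KO (1.31, adjusted p = 3.3e-10). Uggt1, which senses misfolded glycoproteins, fell in Nono KO (-0.31, adjusted p = 0.000129) and Sox5 KO (-0.31, adjusted p = 9.5e-05), and the disulfide isomerase gene Pdia5 fell in Xap5 KO (-0.26, adjusted p = 0.00676). ERSE letters were present before 6 of the 18 genes of this list with a promoter entry (33.3%): Calr, Canx, Pdia6, Dnajc3, Creld2 and Ero1b. Calr, Canx, Pdia6 and Creld2 were called higher in each knockout, Dnajc3 in Nono KO and Sox5 KO, and Ero1b in none. These letters were also present before 2 of the 14 matched degradation genes (14.3%), and before 0.13% of all genes.

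Degradation genes had the smallest medians of the 3 ER lists. Of 18 genes of ER-associated degradation 17 were tested, with 5 higher and 3 lower in Xap5 KO, 6 and 2 in Nono KO, and 8 and 2 in Sox5 KO, and medians of 0.09, 0.09 and 0.12. Selenos rose by 1.69 in Sox5 KO (adjusted p = 1.44e-13) and 0.50 in Nono KO (adjusted p = 1.32e-05), and Sel1l, partner of the ubiquitin ligase HRD1, fell in Sox5 KO (-0.85, adjusted p = 1.96e-10), on chromosome 12 like Dnajb9. Edem1, which routes misfolded glycoproteins to degradation, rose by 0.46 in Xap5 KO (adjusted p = 1.66e-05), and its relative Edem2 fell in Nono KO (-0.35, adjusted p = 0.00275).

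The 19 ER translocation and export genes had 5 higher and 3 lower in Xap5 KO, 11 and 2 in Nono KO, and 13 and 1 in Sox5 KO, with medians of 0.12, 0.33 and 0.53. Ssr2 of the translocon-associated complex rose in Xap5 KO (log2 0.79, adjusted p = 1.71e-07), the signal recognition particle receptor gene Srpr in Nono KO (0.90, adjusted p = 4.43e-11), and Sec61g of the translocon in Sox5 KO (1.91, adjusted p = 0.00325). Tram1 fell in Xap5 KO (-1.01, adjusted p = 2.14e-10) and Nono KO (-0.67, adjusted p = 9.57e-08), and Sec61a1 fell in Sox5 KO (-0.30, adjusted p = 0.000387).

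Chaperones of other compartments were read the same way. The 12 cytosolic heat shock genes gave 4 higher and 3 lower in Xap5 KO, 5 and 4 in Nono KO, and 8 and 1 in Sox5 KO, with medians of -0.01, -0.03 and 0.33. Hspa1a, the inducible HSP70, rose by 0.64 in Nono KO (adjusted p = 0.000256) and 0.83 in Sox5 KO (adjusted p = 8.83e-06), Hsp90ab1 rose by 0.22 in Xap5 KO (adjusted p = 0.0065), Hsp90aa1, also on chromosome 12, fell in Sox5 KO (-0.34, adjusted p = 4.91e-05), and Dnajb1 fell in Xap5 KO (-0.38, adjusted p = 0.000926) and Nono KO (-0.39, adjusted p = 0.000533). Hspa1a has a near-identical copy, Hspa1b, so its count is uncertain. The 9 mitochondrial chaperones and proteases had none lower, while 7, 6 and 9 were higher in the order used above, with medians of 0.28, 0.26 and 0.52. The protease gene Clpp led in Xap5 KO (0.55, adjusted p = 7.22e-05), Hspa9 in Nono KO (0.71, adjusted p = 1.82e-09) and the HSP10 gene Hspe1 in Sox5 KO (1.33, adjusted p = 4.19e-06).

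**Figure D4:**
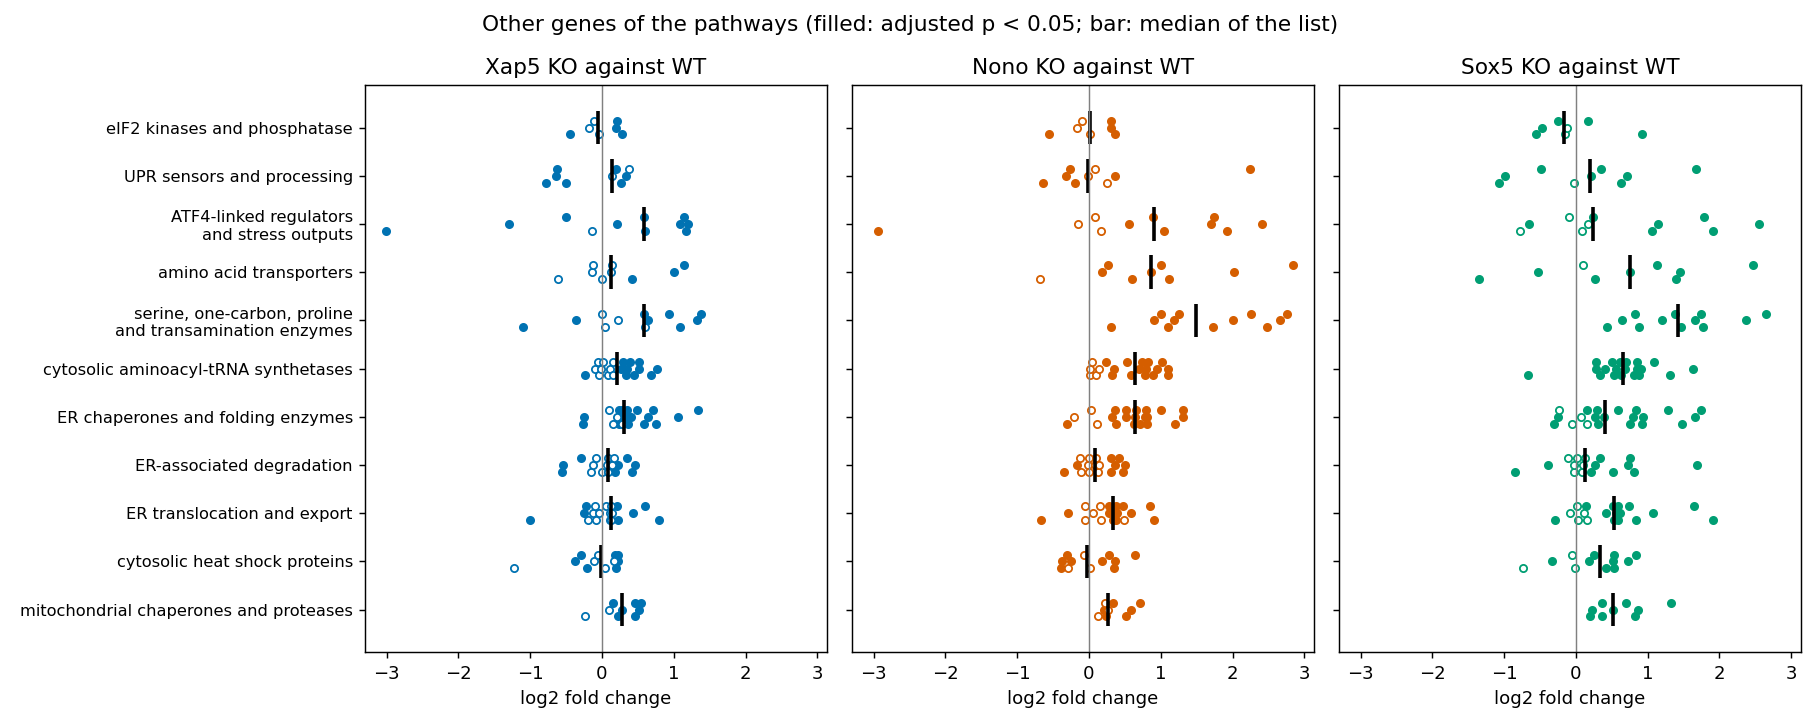
Log2 fold change against WT of the tested genes of each pathway list, 1 panel per knockout; points are genes, filled where called, and bars are list medians. Medians of the serine and one-carbon list reach 1.49 in Nono KO and 1.42 in Sox5 KO, and those of the eIF2 kinase and phosphatase list lie between -0.16 and 0.02.

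CARE letters were present before 4 of 12 ATF4-linked regulators with a promoter entry (33.3%), 3 of 13 tRNA synthetases (23.1%), 2 of 10 serine and one-carbon genes (20.0%) and 1 of 6 transporters (16.7%), and before 3.91% of all genes. They were present before 1 of 18 ER chaperones (5.56%), 1 of 14 degradation genes (7.14%) and none of the matched genes of the other 5 lists. The 4 regulators were Atf3, Nupr1, Fgf21 and Vldlr. Among them, Nupr1 was called higher in each knockout and Fgf21 was not tested. Vldlr was higher in Xap5 KO and Nono KO and lower in Sox5 KO, and Atf3 was called in Xap5 KO alone, as lower.

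For each member, the genes of most similar pattern over the 11 libraries were found among 11535 genes of at least 1 CPM on average, by the root mean square difference of centred log2 CPM. This distance grows with a member's own spread about its mean, which ran from 0.214 for Dnajb9 to 1.072 for Trib3, so distances are not ranked between members. Hsp90b1 was nearest to Mapk6 at 0.034, followed by Gars at 0.067. Atf4 was nearest to Slc1a4 at 0.081 and Fkbp11 at 0.098, Trib3 to Pycr1 at 0.151 and Cav1 at 0.199, and Asns to Pdgfrl at 0.094 and Metrnl at 0.095. Chac1 was nearest to Anxa3 at 0.191 and Apbb1ip at 0.247, and Ddit3 lay nearest to Tmem63a at 0.109 and Cog4 at 0.125. Hspa5 was nearest to Fkbp1a at 0.08 and Eif2s2 at 0.09, Xbp1 to Tmed3 at 0.061 and Hspa9 at 0.067, Dnajb9 to Acadm at 0.074 and Mras at 0.075, and Herpud1 to Ift20 at 0.128 and Ifngr1 at 0.135. Slc1a4 (a neutral amino acid transporter), Pycr1, Gars (a tRNA synthetase) and Hspa9 are also on the pathway lists above. The other nearest genes, which are the majority, are on none of these lists.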

How the data were processed

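Total RNA of 11 libraries was extracted with TRIzol and sequenced from NEBNext Ultra II libraries, per the labels' protocols. The submitters' processing notes name HISAT2 2.1.0, StringTie 1.3.3b, DESeq2 1.12.4 and the build GRCm39 (mm39), with no role or order. The authors deposited 1 table of whole-number values for 21684 genes (5060 of them at 0 throughout). These were treated as estimated counts and taken to have been rounded by the authors before deposit. The value 1 occurred 857 times and the value 2 occurred 3302 times, and how this excess arose was not tested. The counting step and the handling of strand are not given in the sources used here.

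All 11 libraries entered 1 fit with 1 mean per group in edgeR 4.0.16 (R 4.3.3): TMM scaling, filterByExpr at count 10 and total 15 as minimums, the robust quasi-likelihood fit (7 residual degrees of freedom, common biological coefficient of variation 10.57%) and the quasi-likelihood test. Benjamini-Hochberg adjustment ran over 13332 genes, with a call at an adjusted p under 0.05. The fit was tested on simulated data. In those data few genes were changed, in Xap5 KO alone, so scaling where many genes change was not tested. CPM used TMM-scaled library sizes. Gene IDs were matched to GENCODE M21 (GRCm38) for chromosome, transcript length and overlaps: 21540 matched and 144 did not. Promoters came from RefSeq GRCm38.p6, and no coordinate was converted between builds.

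Named genes were the 10 members, the 3 targeted genes, from each list and knockout the called gene with the largest rise and the one with the largest fall among genes of at least 1 CPM on average, and the 2 genes nearest in pattern to each member; 1 further gene that this rule names is not reported here. Mars1 was added after its values were seen, as were Ern1 in Xap5 KO and Sox5 KO. The members and lists were chosen with earlier results of these data known. Alternatives were DESeq2 1.42.0 as a test, other scalings, no filter, a replicate block, pairs of groups, a minimum fold, offsets for transcript length with GC content and for chromosome medians, and leaving out each library.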

Additional observations from a re-analysis of the deposited data

How the results depend on the processing

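Of the 30 member results against WT, 24 kept their direction and their side of the threshold in the 19 alternatives other than the 2-fold minimum, among them Atf4, Trib3, Asns, Chac1, Hspa5 and Xbp1 in each knockout, as did 19 of the 30 between knockouts. With 2 or 3 libraries a group, differences near the spread between libraries could not be called. With that minimum, 2 members were higher in Xap5 KO and 4 in Nono KO, and 0 were lower in Xap5 KO and in Sox5 KO, while all genes called higher and lower numbered 756 and 614 in Xap5 KO, 867 and 624 in Nono KO, and 1106 and 1183 in Sox5 KO. The length and GC offset gave 2 lower members in Xap5 KO (Ddit3 and Dnajb9) and 1 in Nono KO (Dnajb9), turned Ddit3 in Sox5 KO to -0.04, and turned the Nono KO minus Sox5 KO difference to 0.12 for Atf4 and 0.1 for Xbp1; the cause was not tested. With library totals the median of all genes was as low as -0.18 (Nono KO). Nono KO then had 1 lower member, and the Nono KO minus Sox5 KO difference of Chac1 was -0.04. When 1 library was left out, that difference ran from -0.07 (without Nono KO replicate 3 or Sox5 KO replicate 3) to 0.07 (without Sox5 KO replicate 1). Leaving out 1 library gave 0 to 1 lower members in Nono KO. The chromosome offset, chosen after seeing the data, gave 0 lower members in Sox5 KO, turned Ddit3 in Xap5 KO to 0.36, Dnajb9 in Sox5 KO to 0.22, Dnajb9 in Xap5 KO minus Sox5 KO to -0.47, and in Nono KO minus Sox5 KO turned Dnajb9 to -0.39 and Xbp1 to 0.04.

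Libraries with the same replicate number did not deviate together: over 15 pairs r ran from -0.023 to 0.046. With a replicate block, 7 members were higher and 1 lower in Xap5 KO, 9 and 0 in Nono KO, and 9 and 1 in Sox5 KO, and the genes called higher and lower in all numbered 3012 and 2904, 3070 and 3270, and 3997 and 3914.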
